A study of Mus musculus with 6 samples.

Results

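The CNTF and gp130 signaling genes of developing retinal ganglion cells (RGCs) were examined as a set of 9 genes out of the 24060 in the count table. They are the receptor genes Il6st, Lifr, Cntfr and Il6ra, the kinase genes Jak1 and Jak2, the transcription factor gene Stat3, and the feedback inhibitor genes Socs2 and Socs3. They are named for their place in the pathway, by a rule that uses no measured value, although earlier results of these data were known when they were chosen. All 9 passed the expression filter. RGCs, the neurons whose axons form the optic nerve, were purified by immunopanning from C57BL/6 mice at embryonic day 18 (E18, replicates 1, 3 and 4) and postnatal day 5 (P5, replicates 6, 8 and 9). Retinas of both ages were dissociated with papain, macrophages were removed with antibodies, and RGCs were captured with antibodies against CD90, the product of Thy1. The study compared the ages because RGC axons grow well before birth and lose much of that capacity soon after. No treatment, transgene or mutation was named for either group. The number of animals behind each sample was not given, and neither was the sex of the mice.

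CNTF, a cytokine that supports RGC survival and axon growth, first binds CNTFR, a receptor without a cytoplasmic tail that is encoded by Cntfr. The complex then brings together gp130 (Il6st) and the LIF receptor (Lifr), whose tails carry JAK kinases. These phosphorylate STAT3, which enters the nucleus as a dimer and switches on genes that include Socs3, and SOCS3 binds gp130 and the JAKs and shuts the signal down. In the adult retina, loss of Socs3 is known to let injured RGC axons regrow.

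Each sample had between 81213639 and 114512853 reads counted on genes. Values are given in CPM, the count of a gene relative to the size of its library after TMM normalisation. Each fold change divides E18 by P5, and its log2 is positive where E18 is higher. A gene is called changed where the quasi-likelihood test of edgeR gave an adjusted p under 0.05 over the 16449 genes tested. By this measure 43.4% of all tested genes changed, 20.8% being higher and 22.5% lower at E18. E18 and P5 values did not overlap for 56.1%. The 15 RGC markers summed to 11129 to 12698 CPM at E18 and 10931 to 11973 CPM at P5. Single markers differed, 5 being higher and 4 lower at E18. Isl1 was higher (557 against 260 CPM) and Slc17a6 lower (282 against 744 CPM). The marker Rbpms did not pass the threshold, and Thy1, which encodes the capture antigen, was lower at E18 at 247 ± 56.2 against 553 ± 120 CPM (SD, n = 3 each, edgeR quasi-likelihood adjusted p = 0.00197).

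Of the 9 signaling genes, Lifr, Cntfr and Socs3 were higher at E18 and Il6st, Jak1 and Socs2 were lower, whereas Il6ra, Jak2 and Stat3 did not pass the threshold. This is 6 of 9 called against 43.4% of all genes, and the same 6 genes are those without overlap between the ages, against 56.1%. With so few genes, neither share is read as particular to the pathway. The median log2 fold change of the 9 was 0.11, and that of all tested genes was 0.0047. Most of these differences were moderate, and Cntfr and Socs3 were the 2 genes called with a change of at least 2-fold. Among the 3 P5 samples, replicate 8 was the highest for 7 of the 9 genes, which held for 38.8% of all tested genes. Without it, Jak2 also passed and 7 of the 9 were called. In samples made of bulk tissue or purified populations, fewer cells of one type and less RNA per cell cannot be told apart, and this holds for every level given here.

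**Figure D1:**
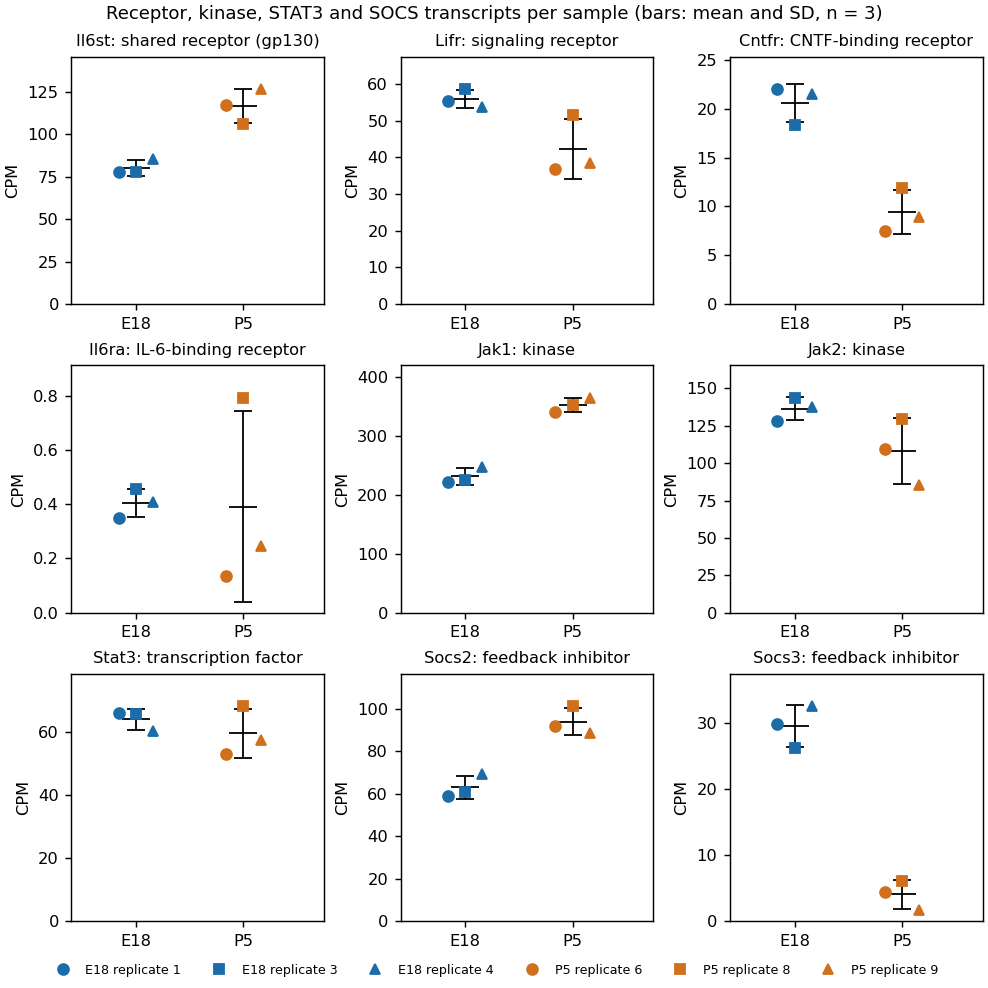
Expression of the 9 genes in each sample in CPM, with one panel per gene and each linear axis starting at 0. Points are single samples, horizontal bars are means and error bars are SD (n = 3). Socs3 shows the widest separation, between 26.3 and 32.5 CPM at E18 and between 1.67 and 6.10 CPM at P5, whereas the points of Stat3, Jak2 and Il6ra overlap between the ages.

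The receptor subunits moved in different directions. Il6st, on chromosome 13 from 112464070 to 112510086 (mm10, plus strand), encodes gp130, the signaling subunit that most IL-6 family cytokines share. Its expression was 77.5, 77.9 and 85.7 CPM in E18 replicates 1, 3 and 4, and 117, 106 and 126 CPM in P5 replicates 6, 8 and 9. Every P5 sample lay above every E18 sample, with the lowest P5 value well clear of the highest E18 value. Il6st was lower at E18 (80.4 ± 4.64 against 117 ± 10.2 CPM, log2 fold change −0.54, SE 0.0973, edgeR quasi-likelihood adjusted p = 0.0031), or 1.45-fold higher at P5 with a 95% confidence interval of 1.25 to 1.69.

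Cntfr, on chromosome 4 from 41657498 to 41697089 (minus strand), encodes the subunit that recognises CNTF and showed the opposite course. Cntfr was expressed at 22.0, 18.33 and 21.4 CPM in E18 replicates 1, 3 and 4 and at 7.49, 11.9 and 8.87 CPM in P5 replicates 6, 8 and 9. The ages did not overlap, and the highest P5 value, in replicate 8, stayed below the lowest E18 value, in replicate 3. The fold change of E18 over P5 was 2.18 with a 95% confidence interval of 1.65 to 2.89 (20.6 ± 1.97 against 9.42 ± 2.25 CPM, log2 fold change 1.13, SE 0.177, edgeR adjusted p = 0.00171). Ordered by fold change of E18 over P5, Cntfr ranked 970 of the 16449 tested genes.

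Lifr, on chromosome 15 from 7090614 to 7197489 (plus strand), encodes the subunit that pairs with gp130 in the CNTF and LIF receptors. Lifr values were 55.4, 58.5 and 53.8 CPM in E18 replicates 1, 3 and 4 and 36.8, 51.7 and 38.6 CPM in P5 replicates 6, 8 and 9. P5 replicate 8 lay close to the E18 samples, and the other P5 samples lay well below them. Lifr was higher at E18 (55.9 ± 2.38 against 42.3 ± 8.12 CPM, log2 fold change 0.40, SE 0.135, edgeR adjusted p = 0.04), which is close to the threshold. Leaving out single samples removed the call in 5 of 6 fits, with adjusted p between 0.0713 and 0.136, and it was kept without P5 replicate 8, at an adjusted p of 0.0014 by edgeR.

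Il6ra, on chromosome 3 from 89864059 to 89913196 (minus strand), encodes the receptor that binds IL-6 ahead of gp130, and it was hardly detected. Its counts were 29, 51 and 37 in E18 replicates 1, 3 and 4 and 12, 78 and 23 in P5 replicates 6, 8 and 9. P5 held both the lowest and the highest of the 6 values, so the ages overlapped fully. Levels were 0.404 ± 0.0528 CPM at E18 and 0.391 ± 0.352 CPM at P5, and the log2 fold change was 0.04 with a 95% confidence interval of −1.25 to 1.34 (edgeR adjusted p = 0.957). A change of more than 2-fold either way therefore lies within the interval. P5 replicate 8 decided the value, as the log2 fold change was 1.06 without it (edgeR adjusted p = 0.052). In the annotation, 2.80% of the exonic bases of Il6ra lie in exons of the overlapping gene Gm42809, and whether counting used strand is not given.

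Among the kinases, Jak1, on chromosome 4 from 101152367 to 101265282 (minus strand), had the highest CPM of the 9 genes. JAK1 is the kinase on which signaling through gp130 mainly relies. Its values were 221, 224 and 247 CPM in E18 replicates 1, 3 and 4 and 341, 352 and 365 CPM in P5 replicates 6, 8 and 9. The 2 groups were tight and far apart. Jak1 was lower at E18 (231 ± 13.9 against 353 ± 11.9 CPM, log2 fold change −0.61, SE 0.0841, edgeR adjusted p = 0.000992), and the P5 level was 1.53-fold the E18 level with a 95% confidence interval of 1.34 to 1.74.

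Jak2, on chromosome 19 from 29251828 to 29313080 (plus strand), encodes the kinase that also serves the growth hormone and prolactin receptors. It was expressed at 128, 144 and 137 CPM in E18 replicates 1, 3 and 4 and at 110, 129 and 85.5 CPM in P5 replicates 6, 8 and 9. The ages overlapped, since P5 replicate 8 lay just above E18 replicate 1. Jak2 did not pass the threshold (137 ± 7.70 against 108 ± 22.0 CPM, log2 fold change 0.34, SE 0.143, 95% confidence interval 0.01 to 0.66, edgeR adjusted p = 0.0867). Without P5 replicate 8 the log2 fold change was 0.47 and the edgeR adjusted p was 0.0133.

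Stat3, on chromosome 11 from 100885098 to 100939540 (minus strand), encodes the transcription factor through which CNTF acts on the nucleus. Stat3 was expressed at 66.1, 65.7 and 60.2 CPM in E18 replicates 1, 3 and 4 and at 53.1, 68.1 and 57.3 CPM in P5 replicates 6, 8 and 9. P5 replicate 8 held the highest value of all 6 samples and P5 replicate 6 the lowest. Stat3 did not pass the threshold (64.0 ± 3.28 against 59.5 ± 7.78 CPM, log2 fold change 0.11, edgeR adjusted p = 0.471). The 95% confidence interval of −0.15 to 0.36 leaves room for an E18 level between 0.902 and 1.28 times the P5 level. Stat5a lies beside Stat3 on the other strand, and their exons share 72 bases, or 1.16% of the exonic bases of Stat3.

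Socs3, on chromosome 11 from 117966079 to 117970047 (minus strand), encodes the inhibitor that STAT3 induces and that acts directly on gp130. Its counts were 2473, 2945 and 2946 in E18 replicates 1, 3 and 4, and 386, 601 and 157 in P5 replicates 6, 8 and 9. These correspond to 29.8, 26.3 and 32.5 CPM at E18 and 4.35, 6.10 and 1.67 CPM at P5. All E18 samples were far above all P5 samples, and the P5 samples differed among themselves more than the E18 samples did, with coefficients of variation of 55.3% and 10.6%. Socs3 was 7.30-fold higher at E18, with a 95% confidence interval of 3.98 to 13.4 (29.5 ± 3.14 against 4.04 ± 2.23 CPM, log2 fold change 2.87, SE 0.385, edgeR adjusted p = 0.000903). Of the 16449 tested genes it ranked 99 by fold change of E18 over P5. Each fit that left out a sample kept the call, with log2 fold changes between 2.49 and 3.28.

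**Figure D2:**
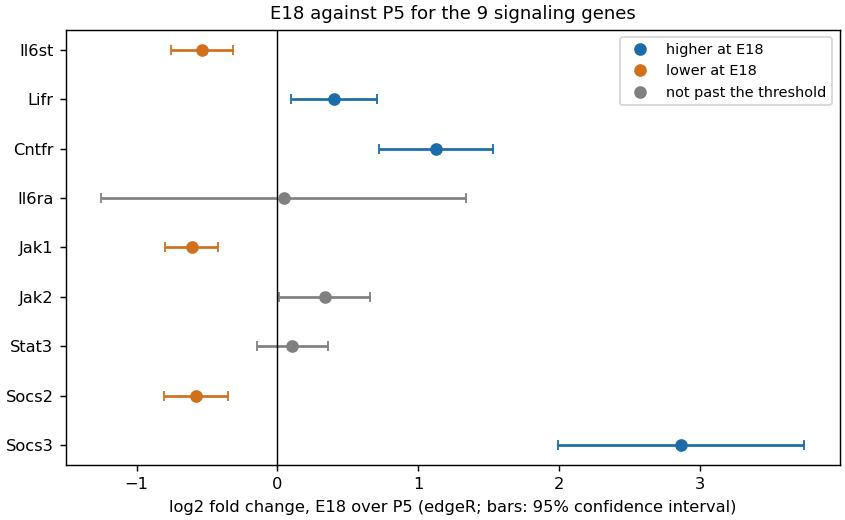
Log2 fold change of E18 over P5 for the 9 genes on the horizontal axis, from the edgeR fit over all tested genes. Points are estimates, bars are 95% confidence intervals and colours give the call. Socs3 lies at 2.87 and Cntfr at 1.13, whereas Il6st, Jak1 and Socs2 lie between −0.61 and −0.54, and the interval of Il6ra spans −1.25 to 1.34.

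STAT dimers are known to bind the palindrome TTCNNNGAA, which reads the same on both strands. It was searched for in RefSeq promoter windows (GRCm38.p6) that run from 250 bases before to 50 bases after the start site. Such windows were at hand for 8 of the 9 genes, Socs2 being without one. Socs3 was the one gene with a match, and its sequence is shown because Socs3 is the STAT3-induced gene of the set and the one with the largest difference. The site lies at chr11:117969502-117969530 on the minus strand, with the palindrome in capitals from 117969512 to 117969520:
Socs3: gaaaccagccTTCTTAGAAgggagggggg
The palindrome begins 154 bases before the RefSeq start site. GENCODE places it inside the Socs3 gene but outside its exons, since the annotation includes a Socs3 transcript with an earlier start. The palindrome was found in 8.30% of all 32851 windows and for 9.55% of the 27025 genes with a window. A match is a description of the letters, and binding was not measured here.

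Socs2, on chromosome 10 from 95385362 to 95417180 (minus strand), encodes an inhibitor best known for limiting growth hormone signaling, and it ran opposite to Socs3. Its values were 59.1, 60.8 and 69.1 CPM in E18 replicates 1, 3 and 4 and 92.0, 101 and 88.6 CPM in P5 replicates 6, 8 and 9. The lowest P5 sample lay well above the highest E18 sample. Socs2 was lower at E18 (63.0 ± 5.38 against 94.0 ± 6.53 CPM, log2 fold change −0.58, SE 0.0994, edgeR adjusted p = 0.00253), and its P5 level was 1.49-fold its E18 level with a 95% confidence interval of 1.27 to 1.74.

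The genes can be ranked against each other only after division by transcript length. Per kilobase of exons in GENCODE's basic annotation, Jak1 was the highest at both ages, at 47.1 ± 2.83 CPM per kilobase at E18 and 71.9 ± 2.43 at P5. At E18 it was followed by Jak2 at 27.1 ± 1.53 and Socs2 at 23.4 ± 1.99 CPM per kilobase, whose sample ranges touched. Then came Socs3 at 11.6 ± 1.23, Stat3 at 10.3 ± 0.526 and Cntfr at 10.002 ± 0.958, which overlapped. Il6st at 7.33 ± 0.423 and Lifr at 5.39 ± 0.23 followed, each clear of its neighbours, and Il6ra was at 0.0468 ± 0.00611 CPM per kilobase. At P5 the order was Jak1, Socs2 at 34.8 ± 2.42, Jak2 at 21.5 ± 4.36, Il6st at 10.6 ± 0.93 and Stat3 at 9.55 ± 1.25 CPM per kilobase, where the ranges of Il6st and Stat3 overlapped. The lower end held Cntfr at 4.58 ± 1.10 and Lifr at 4.08 ± 0.782, which overlapped, then Socs3 at 1.58 ± 0.875 and Il6ra at 0.0452 ± 0.0407. Socs3 thus stood among the middle genes of the set at E18 and next to last at P5, with either length. The order below Jak1 depends on the length used. With transcripts matched to RefSeq, the E18 order was Jak1, Socs2 at 28.4, Jak2 at 27.1, Stat3 at 21.9, Lifr at 16.5, Socs3 at 11.6, Cntfr at 10.7, Il6st at 9.26 and Il6ra at 0.121 CPM per kilobase. At P5 it put Stat3 at 20.3, above Il6st at 13.4, and Lifr at 12.5, above Cntfr at 4.89 CPM per kilobase.

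Shares within each family put these levels side by side in 1 sample. A larger share of one gene leaves less for the others, so the shares of a family are not separate results. For 3 samples against 3, the exact two-sided permutation test cannot give less than 0.1, and 10 of the 16 shares reached it, with an adjusted p of 0.16 over the 16. Of the summed CPM per kilobase of the 4 JAK genes, Jak1 took 59.5%, 57.7% and 60.4% in E18 replicates 1, 3 and 4 and 72.6%, 70.8% and 77.7% in P5 replicates 6, 8 and 9. Jak2 took 33.6%, 36.0% and 32.7% in the E18 samples and 22.8%, 25.4% and 17.8% in the P5 samples. The mean share of Jak1 was thus 14.5 percentage points lower at E18 and that of Jak2 12.2 points higher, and neither share overlapped between the ages (exact permutation p = 0.1 for both). Tyk2, whose product also serves interferon and IL-12 receptors, took 6.01% ± 0.27 at E18 and 3.48% ± 0.18 at P5. Jak3, which is best known in lymphocytes, stayed near 1%.

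Shares were also taken among 6 receptor subunits of the family, without Il27ra and Il31ra. Il6st took 25.9%, 27.5% and 27.4% of the summed CPM per kilobase in the E18 samples and 49.3%, 40.6% and 49.7% in the P5 samples. Cntfr took 39.1%, 34.5% and 36.5% at E18 and 16.8%, 24.2% and 18.6% at P5. Cntfr therefore exceeded Il6st in each E18 sample, and Il6st exceeded Cntfr in each P5 sample, with this length correction. The mean share of Il6st was 19.6 points lower at E18 and that of Cntfr 16.9 points higher (exact permutation p = 0.1 for both). Lifr took 19.9% ± 1.87 at E18 and 17.7% ± 2.72 at P5, with overlap (exact permutation p = 0.3). Il11ra1, the IL-11 receptor, took 16.3% ± 1.33 and 15.6% ± 1.83 (exact permutation p = 0.6). Osmr, the oncostatin M receptor, and Il6ra stayed under 1% in each sample.

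Of the 6 STAT genes compared, Stat3 took 34.9%, 36.2% and 30.0% in the E18 samples and 28.7%, 36.7% and 31.6% in the P5 samples, without a separation of the ages (exact permutation p = 0.8). Stat2, which acts behind the interferon receptors, took 39.6% ± 2.32 at E18 and 26.1% ± 4.57 at P5, and Stat5b took 22.2% ± 1.02 and 26.6% ± 1.23. Stat6, which acts behind the IL-4 receptor, took 2.11% ± 0.031 at E18 and 9.14% ± 3.30 at P5. With the exon lengths of GENCODE's basic annotation, Stat2, Stat3 and Stat5b were thus the 3 largest of these shares at E18.

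**Figure D3:**
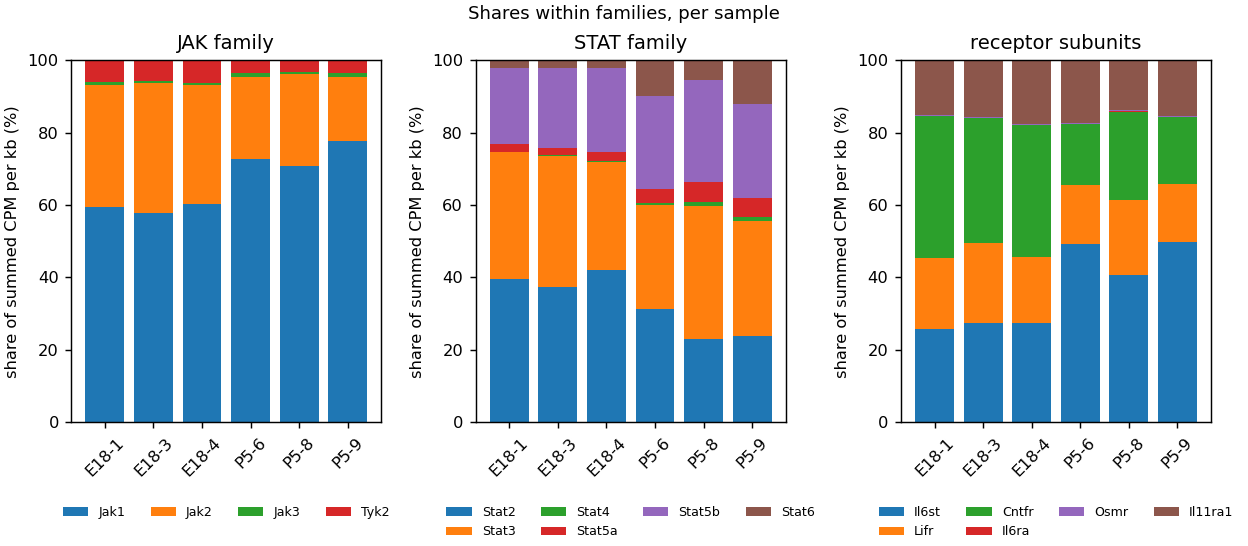
Share of each gene, in percent, in the summed CPM per kilobase of its family in each sample. Bars are the 6 samples, labelled by age and replicate, and colours are genes. Jak1 takes 57.7% to 60.4% of the JAK family at E18 and 70.8% to 77.7% at P5, Stat3 takes 28.7% to 36.7% of the STAT genes shown in all 6 samples, and Il6st takes 25.9% to 27.5% of the receptor subunits at E18 and 40.6% to 49.7% at P5.

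Of 35 other genes of the pathway, 31 passed the expression filter and 12 were called by edgeR, 6 higher and 6 lower at E18. That is 38.7% of those tested, near the 43.4% of all genes, and their median log2 fold change was −0.13. Without P5 replicate 8, 18 were called, 8 higher and 10 lower. Among 10 ligand genes, 7 were tested, of which 2 were lower at E18. Clcf1, encoding a cytokine that binds CNTFR, was at 3.22 ± 0.45 and 3.30 ± 0.74 CPM and did not pass. Lif, encoding leukemia inhibitory factor, was lower at E18, at 0.199 ± 0.0858 CPM at E18 and 0.566 ± 0.157 CPM at P5 (log2 fold change −1.52, edgeR adjusted p = 0.0166). Il11, encoding IL-11, was at 0.636 ± 0.0756 and 1.21 ± 0.107 CPM (log2 fold change −0.93, edgeR adjusted p = 0.0145). All of these ligand genes were thus at low levels. The Lif call was lost without E18 replicate 3 and without P5 replicate 6, with edgeR adjusted p up to 0.069, and the Il11 call was lost without E18 replicate 3, at 0.0709.

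Cntf itself was barely detected, with 15 to 47 counts per sample and 0.329 ± 0.0837 CPM at E18 against 0.268 ± 0.114 CPM at P5 (edgeR adjusted p = 0.578). The Cntf gene lies within the locus annotated to Zfp91, and reads in exons that both share cannot be assigned to one of them from these counts. Il6 had at most 1 count in a sample, Osm at most 4 and Il27 at most 2, and none of these 3 passed the filter.

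Of the 4 other receptor genes, 3 were tested and 0 were called by edgeR or by DESeq2, and 0 had an unadjusted p under 0.05. Il11ra1, at 11.1 ± 1.39 CPM at E18 and 8.94 ± 0.631 CPM at P5, did not overlap between the ages but did not pass (edgeR adjusted p = 0.0971). Osmr had 5 to 19 counts per sample.

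Of 7 other kinase and STAT genes, 2 were higher and 3 were lower at E18, against 20.8% and 22.5% of all genes. Stat2 was at 52.9, 47.8 and 59.5 CPM in E18 replicates 1, 3 and 4 and at 40.8, 30.1 and 30.6 CPM in P5 replicates 6, 8 and 9 (log2 fold change 0.66, SE 0.143, edgeR adjusted p = 0.00691). Tyk2 was also higher at E18, with a log2 fold change of 0.50 (edgeR adjusted p = 0.00535). Stat6 was at 2.39, 2.31 and 2.61 CPM in the E18 samples and at 11.0, 6.25 and 13.2 CPM in the P5 samples. The E18 samples of Stat6 lay close together, and each P5 sample was above them (log2 fold change −2.06, SE 0.267, edgeR adjusted p = 0.000801). Stat5a, which acts behind the growth hormone and prolactin receptors with Stat5b, was at 2.76 ± 0.439 CPM at E18 and 5.70 ± 1.02 CPM at P5 (log2 fold change −1.04, edgeR adjusted p = 0.00483). Stat4, which acts behind the IL-12 receptor, was at 0.104 ± 0.0496 and 0.866 ± 0.46 CPM, with 31 counts in all E18 samples together and 248 in the P5 samples (log2 fold change −3.02, edgeR adjusted p = 0.00347). Stat5b (log2 fold change −0.21) and Jak3 (−0.59) did not pass.

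Of the 14 other inhibitor genes, 4 were higher and 1 was lower at E18, against 20.8% and 22.5% of all genes. Their median log2 fold change was −0.02. Socs4 was at 14.2 ± 1.35 CPM at E18 and 8.38 ± 1.77 CPM at P5 (log2 fold change 0.76, edgeR adjusted p = 0.00892). Socs5, whose product restrains EGF and IL-4 receptor signals, went the other way at 30.8 ± 2.21 and 55.7 ± 5.27 CPM (log2 fold change −0.86, edgeR adjusted p = 0.000722). The remaining SOCS genes were Socs1 (log2 fold change −0.33), Socs6 (0.21), Socs7 (0.06) and Cish (−0.10), none of which passed. Of the 8 SOCS family genes including Socs2 and Socs3, Socs3 and Socs4 were thus higher and Socs2 and Socs5 lower at E18. Of all tested genes, 43.4% were called. Pias1, a SUMO ligase that restrains STAT factors, was at 52.0 ± 3.22 against 32.9 ± 7.55 CPM (log2 fold change 0.66, edgeR adjusted p = 0.0103). Ptpn1, a phosphatase that acts on JAK2 and TYK2, was at 79.5 ± 1.87 against 52.8 ± 11.2 CPM (log2 fold change 0.59, edgeR adjusted p = 0.0111). Pias4 was higher at E18 by 0.42 on the log2 scale (edgeR adjusted p = 0.0249), a call that was gone in 5 of 6 fits with a sample left out. Pias3, the inhibitor of STAT3, had a log2 fold change of −0.28 and did not pass.

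**Figure D4:**
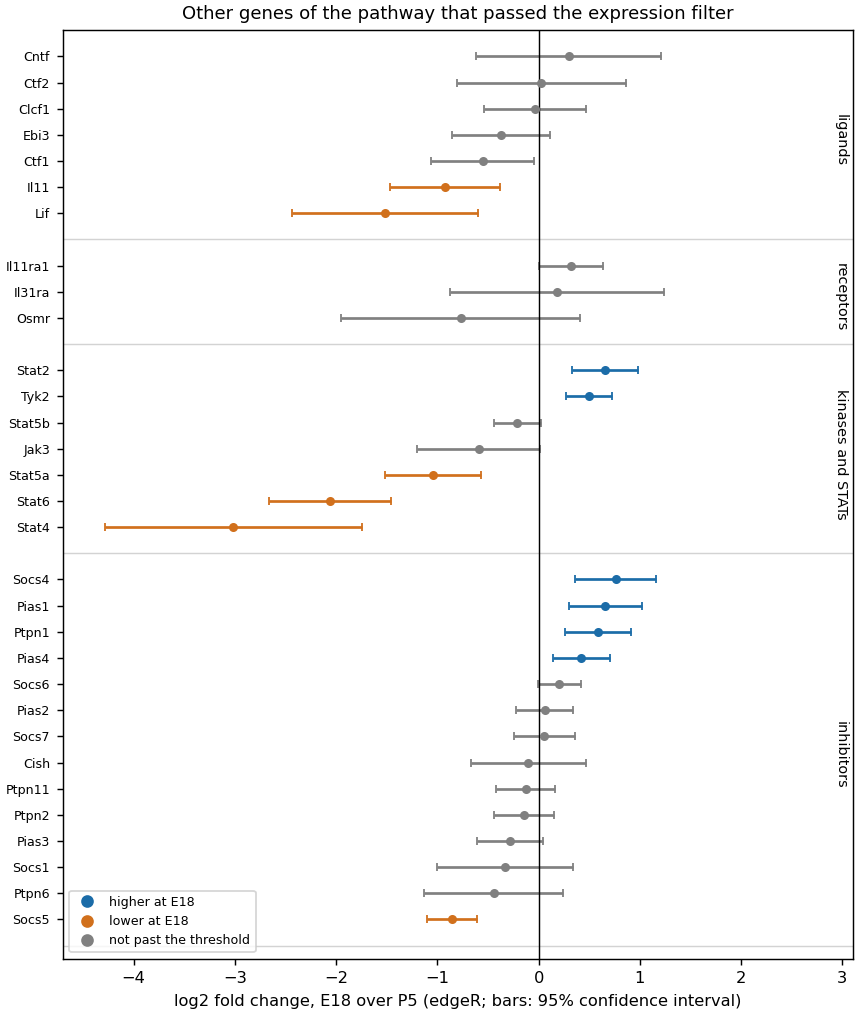
Log2 fold change of E18 over P5 on the horizontal axis for the 31 other pathway genes tested, grouped as ligands, receptors, kinases with STATs, and inhibitors. Points are edgeR estimates, bars are 95% confidence intervals and colours give the call. Socs4 lies highest among the called genes at 0.76 and Stat4 lowest at −3.02, and 19 of the 31 genes did not pass the threshold.

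Genes known to be induced by STAT3 were examined next, because Socs3 is one of them. Of 20 such genes, not counting Socs3, 17 were tested, of which 7 were higher and 1 was lower at E18, with a median log2 fold change of 0.46. Of all genes, 20.8% were higher and 22.5% lower. Irf1, an interferon-responsive transcription factor, was at 20.5, 14.4 and 13.1 CPM in E18 replicates 1, 3 and 4 and at 1.805, 1.73 and 0.478 CPM in P5 replicates 6, 8 and 9. It was far higher in all E18 samples, with a fold of 11.95 (log2 fold change 3.58, SE 0.44, edgeR adjusted p = 0.000642). Like Socs3, it was lowest in P5 replicate 9. A2m, encoding the protease inhibitor alpha-2-macroglobulin, was at 19.8 ± 0.849 CPM at E18 and 3.73 ± 0.376 CPM at P5 (log2 fold change 2.41, edgeR adjusted p = 3.31e-05).

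Ccnd1, encoding the G1 cyclin D1, was at 146, 34.5 and 14.2 CPM in the E18 samples and at 8.83, 10.9 and 5.54 CPM in the P5 samples. E18 replicate 1 stood far above the others, and it was also the highest in markers of progenitors and dividing cells, whose summed expression was 356, 133 and 87.7 CPM at E18 and 68.6, 83.3 and 60.9 CPM at P5. The Ccnd1 call (log2 fold change 2.94, edgeR adjusted p = 0.0129) was lost without P5 replicate 6 and without P5 replicate 9, with edgeR adjusted p up to 0.0598. Without E18 replicate 1 the log2 fold change was 1.54 (edgeR adjusted p = 0.0168). Cebpb, a transcription factor of the acute-phase response, was the 1 gene of the list that was lower at E18, at 0.527 ± 0.217 against 1.44 ± 0.113 CPM (log2 fold change −1.45, edgeR adjusted p = 0.00733). Gfap, Lcn2 and Sprr1a did not pass the expression filter.

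Socs3 and Irf1 are also known to respond to tissue dissociation and to inflammatory signals, so immediate-early genes and markers of other cells were set beside Socs3. Of 12 immediate-early genes, 7 were higher and 1 was lower at E18 by edgeR, against 20.8% and 22.5% of all genes, with a median log2 fold change of 0.97. Junb and Fos, 2 of these 12, were also among the STAT3-induced genes above. The summed expression of the 12 was 480, 371 and 472 CPM in E18 replicates 1, 3 and 4 and 356, 282 and 210 CPM in P5 replicates 6, 8 and 9. The sums were higher in the E18 samples, with little space between E18 replicate 3 and P5 replicate 6. Within each age the sum and Socs3 were lowest in the same sample, replicate 3 at E18 and replicate 9 at P5, but they were highest in different samples, replicates 1 and 4 at E18 and replicates 6 and 8 at P5. Dusp1, a MAP kinase phosphatase, was at 39.7 ± 1.92 CPM at E18 and 12.2 ± 3.61 CPM at P5 (log2 fold change 1.70, edgeR adjusted p = 0.000487). Egr2 was at 1.22 ± 0.855 and 0.227 ± 0.0528 CPM (log2 fold change 2.41, edgeR adjusted p = 0.0061), and without E18 replicate 1, which had 2.19 CPM, its log2 fold change was 1.68. The injury-responsive factor Atf3 was at 6.57 ± 1.72 and 2.17 ± 1.62 CPM (log2 fold change 1.60, edgeR adjusted p = 0.0304), a call lost without E18 replicate 1 and without P5 replicate 8. Without P5 replicate 6 its log2 fold change was 2.34. Fosb went the other way at 7.49 ± 1.53 and 11.7 ± 3.01 CPM (log2 fold change −0.65, edgeR adjusted p = 0.0407), a call lost without E18 replicate 3 or 4, without P5 replicate 6 and with upper-quartile scaling. Fos, at 135 ± 18.8 and 120 ± 34.7 CPM, did not pass. The part of dissociation in the Socs3 difference was not tested.

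Markers of other retinal cells moved in part with age. For endothelial cells and pericytes, the summed expression of 9 genes was 72.8, 64.6 and 16.5 CPM at E18 and 15.1, 17.9 and 14.6 CPM at P5, of which Kdr alone made up 69.5, 62.9 and 14.1 CPM at E18. Of 8 tested, 1 (Kdr) was higher and 3 were lower at E18. The 3 lower genes were Pecam1 (0.686 ± 0.181 against 2.41 ± 0.293 CPM), Tek (0.83 ± 0.25 against 2.88 ± 0.7 CPM) and Rgs5 (0.112 ± 0.0186 against 2.33 ± 0.81 CPM). Cdh5, which defines endothelium, had at most 6 counts in a sample. For Müller glia and astrocytes, the sum over 12 genes was 625, 567 and 529 CPM at E18 and 531, 554 and 552 CPM at P5, with 3 genes higher and 2 lower of 11 tested. The 3 higher genes were Glul (320 ± 6.91 against 251 ± 21.3 CPM), Vim (87.6 ± 5.87 against 38.7 ± 8.31 CPM) and Sox9 (0.863 ± 0.852 against 0.171 ± 0.0178 CPM). Sox9 overlapped between the ages and was highest in E18 replicate 1, at 1.82 CPM. The 2 lower genes were Dkk3 (123 ± 28.5 against 184 ± 17.5 CPM) and Clu (25.3 ± 3.76 against 57.9 ± 17.8 CPM). Slc1a3 reached 16.2 CPM in E18 replicate 1 and did not pass, Aqp4 was at most at 0.41 CPM, and Gfap was at most at 0.117 CPM. The microglial sum over 11 genes ranged from 1.79 to 3.31 CPM over all 6 samples, with 1 of 8 tested genes higher at E18. Of 12 tested markers of progenitors and dividing cells, 8 were higher and 0 lower at E18, against 20.8% and 22.5% of all genes. For amacrine cells 5 were higher and 1 lower of 10 tested, with a median log2 fold change of 2.87. The sum over 11 amacrine genes was nonetheless lower at E18, at 1618, 1706 and 1492 CPM. At P5 it was 1911, 1790 and 2005 CPM. For photoreceptors 3 were higher and 1 lower of 10 tested. For bipolar cells 2 were higher and 2 lower of 6 tested, and for oligodendrocytes 1 and 2 of 6. The part of these cell types in the Socs3 difference was not tested.

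**Figure D5:**
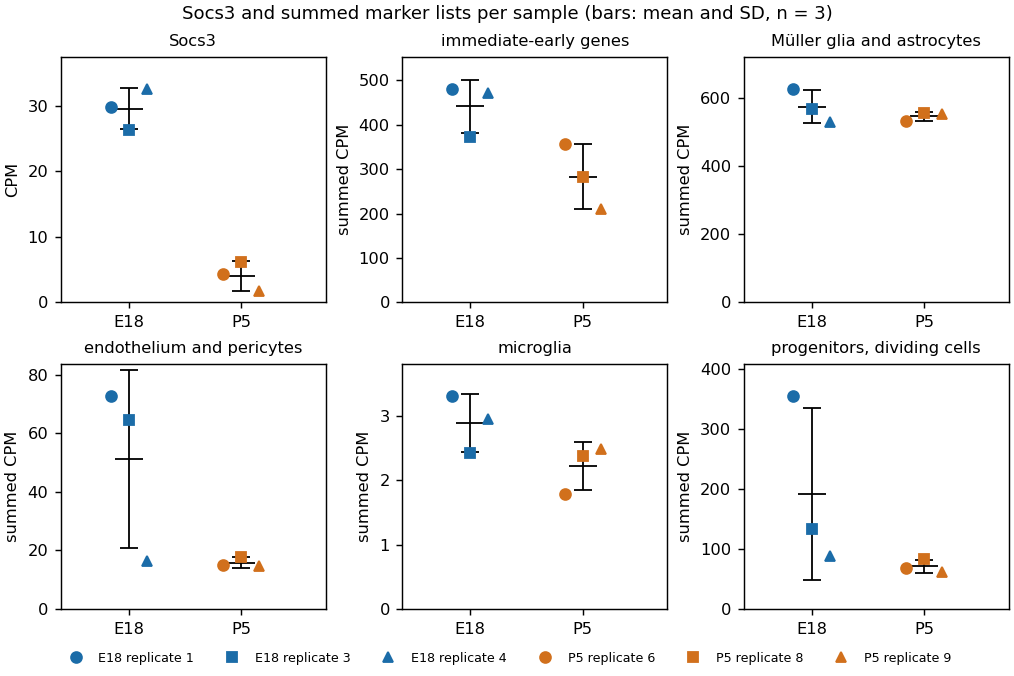
Socs3 and the summed expression of 5 gene lists in each sample, in CPM, on linear axes that start at 0. Points are single samples, horizontal bars are means and error bars are SD (n = 3). The immediate-early sum lies between 371 and 480 CPM at E18 and between 210 and 356 CPM at P5. The endothelial sum lies between 16.5 and 72.8 CPM at E18 and between 14.6 and 17.9 CPM at P5. Kdr alone makes up 14.1 to 69.5 CPM of it at E18, whereas Pecam1, Tek and Rgs5, also in the sum, were lower at E18.

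Several receptors of other cytokines that signal through JAK kinases were lower at E18. Of 12 such genes, 11 were tested, and 0 were higher and 7 lower at E18 by edgeR, against 22.5% of all genes that were lower, with a median log2 fold change of −0.32. DESeq2 also called 7, and 7 had an unadjusted p under 0.05. Epor, the erythropoietin receptor (log2 fold change 0.43), and the interferon receptor genes Ifnar1 (0.10) and Ifnar2 (−0.14), with Il2rg (−0.27), did not pass. Prlr, the prolactin receptor, was at 0.735, 0.375 and 0.563 CPM in E18 replicates 1, 3 and 4 and at 6.396, 4.98 and 7.44 CPM in P5 replicates 6, 8 and 9. Its P5 values were all many times its E18 values, with a fold of 11.3 (log2 fold change −3.50, SE 0.296, edgeR adjusted p = 0.000166). Ghr, the growth hormone receptor, was at 2.85 ± 0.364 CPM at E18 and 6.03 ± 1.13 CPM at P5 (log2 fold change −1.08, edgeR adjusted p = 0.00382). Il10rb, a receptor subunit for IL-10 and lambda interferons, was at 2.44 ± 0.465 and 7.32 ± 1.55 CPM (log2 fold change −1.59, edgeR adjusted p = 0.0011). The count of 7 became 4 without E18 replicate 1 and without E18 replicate 3.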

How the data were processed

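RNA-seq of RGCs was compared between 3 samples at E18 and 3 at P5, grouped by their titles. One E18 column name carries the numbers 1, 2 and 5 and was taken as replicate 1. The labels name polyA RNA, whereas the protocol names ribosomal RNA depletion. The authors sequenced paired-end reads of 100 bases, mapped them with STAR to the mm10 genome and deposited raw counts per RefSeq gene from HT-seq. Per the labels, CASAVA 1.8.2 and edgeR were also used. Not used here were the normalized counts deposited by the authors, a signal scaled for library size, and their rank score, log2 fold changes and p-values with false discovery rates.

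The main test was edgeR's quasi-likelihood F test (edgeR 4.0.16, R 4.3.3) on these counts, with TMM and filterByExpr, Benjamini-Hochberg adjustment over the 16449 genes tested and a threshold of 0.05. SE and intervals belong to the fitted model. Replicates differed beyond sampling noise (chi-square of 30.5 to 141 per degree of freedom). Nothing states that samples came from separate animals, so p-values measure only the spread between these samples. With between 81213639 and 114512853 counts per sample, that spread limits precision except for genes with few counts. On simulated counts of 16304 genes for E18 against P5, the test recovered 63 of 100 genes changed by 1 on the log2 scale and 93 of 100 changed by 2, with 6 false calls. No other genes were changed in the simulation, whereas 43.4% were called in the data. The adjustment of p depends on that share, so these rates do not carry over directly. Changes smaller than 1 were not simulated.

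The 9 genes and all lists were chosen with earlier results of these data known. In what follows, a rise is a higher level at E18 and a fall a lower one. Named are the 9 genes, the other pathway genes called, with values for at most the 5 largest rises and 5 largest falls, the STAT and SOCS genes reported, up to 3 each way from the other lists, the 3 genes nearest in pattern to Stat3 and to Il6st, and markers beside a result. Pias3, Jak3, Clcf1, Cntf, Il6, Osm, Il27, Il11ra1, Osmr, Fos, Junb, Gfap, Lcn2, Sprr1a, Epor, Ifnar1, Ifnar2 and Il2rg, which this rule does not name, were chosen after their values were seen. Gene positions and exon lengths are from GENCODE M21. As alternatives, DESeq2 1.42.0, the likelihood ratio and exact tests of edgeR, RLE and upper-quartile scaling, other filters on low counts, each sample left out, and other transcript lengths were tried. Shares with the length of RefSeq-matched transcripts were chosen after seeing the data. Shares were compared by exact permutation tests. Some genes are not reported here and were left out of the lists and of the STAT shares.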

Additional observations from a re-analysis of the deposited data

How the results depend on the processing

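The 7 alternatives that left out no sample (DESeq2, edgeR's exact and likelihood ratio tests, RLE and upper-quartile scaling, and both other filters) kept the calls of the same 6 signaling genes, and leaving out a sample gave 5 to 7. No paired analysis was possible because the ages share no replicate number. Leaving out a sample gave 4575 to 8796 genes called in all (2137 to 4135 higher and 2438 to 4661 lower at E18), the lowest without E18 replicate 3, and 9 to 18 other pathway genes (4 to 10 lower), the highest without P5 replicate 8. It gave 4 to 7 receptors of other cytokines, all lower at E18, and 0 to 1 immediate-early genes lower at E18, a count that was also 0 with upper-quartile scaling. The difference in share was 9.44 points for Lifr and 6.93 points for Cntfr without length correction, and 11.4 points for Cntfr with RefSeq-matched lengths, against 2.13 and 16.9 points as reported. The log2 fold changes of 4 genes that did not pass spanned both signs when a sample was left out. They ran from −0.37 to 1.06 for Il6ra, −0.31 to 0.14 for Cish, −0.042 to 0.20 for Socs7 and −0.000297 to 0.16 for Bod1l. The cause was not tested. Il6ra, Cntf, Osmr and Stat4 rest on few counts, and the part of counting error in their spread was not tested.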

Other observations

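Genes whose course over the 6 samples was most like that of Stat3 and of Il6st were sought among 9724 genes averaging 10 CPM or more, by the root mean square distance of log2 CPM centred on each gene's own mean (pseudocount 0.1). For Stat3 these were Tbp (distance 0.0326), Gm608 (0.0332) and Bod1l (0.0367), each of which was also higher in P5 replicate 8 than in the other P5 samples. The signaling genes nearest to Stat3 were Lifr, at 0.164 and rank 2543, and Jak2, at 0.198. For Il6st the nearest were Aldh3a2 (0.0180), Impa1 (0.0248) and Tasp1 (0.0326). Aldh3a2, a fatty aldehyde dehydrogenase, was at 54.8, 55.8 and 60.8 CPM in E18 replicates 1, 3 and 4 and at 86.0, 76.2 and 92.1 CPM in P5 replicates 6, 8 and 9, with the same order of samples within P5 as Il6st. Jak1 ranked 185 at a distance of 0.0770 and Socs2 ranked 969 at 0.134. The nearest genes were chosen for their likeness, so the peak in P5 replicate 8 and the shared P5 order follow largely from that choice. All genes were read from the same 6 libraries and so share each library's depth and age, and the distances carry no test.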
